A study of Arabidopsis thaliana with 12 samples.

Results

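The comparison described here sets 3 arrays of Ws-2 leaves in condition H against 3 arrays of Ws-2 leaves in condition L, which are 6 of the 12 arrays of the series. Members were taken by the codes in the sample titles, and no measured value was used to choose them. Ws-2 is a natural accession of Arabidopsis thaliana that serves as the wild type, and it carries no transgene in the labels. The other 6 arrays hold 3 of ape2 in condition H and 3 of ape2 in condition L. They served as a second measurement of H against L, and they also entered the filter on low signals and the error estimate that all 4 groups share, so they bear on which Ws-2 changes were called. The labels give ape2 as a T-DNA insert in the Ws-2 background, and the series title speaks of a TPT mutant. TPT is the chloroplast envelope transporter that exchanges triose phosphates for phosphate. All 12 arrays measured biotin-labelled total RNA of mature rosette leaves that were not shaded, at developmental stage 3.7. The labels do not say what H and L stand for, so they are used as names, and they do not say whether the replicates came from separate plants or pots. The p-values therefore speak only of how much these samples varied, which may be a technical spread.

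A mature leaf exports the carbon it fixes in the light, stores part of it as starch in the chloroplast, and adjusts its photosynthetic apparatus to growth conditions. The apparatus draws on both genomes of the leaf cell. The plastid genome encodes core subunits of the photosystems, and nuclear genes encode the light-harvesting antenna and most enzymes of carbon metabolism. Sugar transporters of the SWEET family move sucrose or hexoses across membranes, and enzymes such as expansins and endoglucanases loosen or remodel the cell wall. The series title names carbohydrate and redox signals as the subject of the study.

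Between 63.7% and 67.0% of probe sets reached a signal of 20 on the 6 Ws-2 arrays, and array medians ran from 36.2 to 38.7 arbitrary units. Correlations of log2 signals between an H and an L array ran from 0.980 to 0.984, against 0.984 to 0.986 within Ws-2 H and 0.984 to 0.985 within Ws-2 L. For actin the signal ratio of its 3' and 5' probe sets, which tracks RNA integrity, was 2.63 ± 0.36 in Ws-2 H and 2.98 ± 0.23 in Ws-2 L (SD, n = 3 each), with overlapping ranges. The same ratio for GAPDH was 1.13 ± 0.04 in Ws-2 H and 1.24 ± 0.10 in Ws-2 L, again overlapping. Both means were also lower in H in ape2, with 2.41 in ape2 H and 2.73 in ape2 L for actin and 1.102 in ape2 H and 1.151 in ape2 L for GAPDH. Their part in the results below was not tested. Of the mesophyll markers, 4 were measured, and all were among the bright transcripts of the leaf, with means in Ws-2 H of 4374 for LHCB4.1, 4109 for RCA, 3891 for PRK and 3527 for SBPASE, against means in Ws-2 L of 4824, 4326, 4072 and 3686 in the same order. Of the markers of other cell types, only the guard cell gene FMA, the dividing-cell genes AUR1 and AUR2 and the root-hair gene EXPA7 had a probe set named and tested, and their mean signals were between 19.2 and 52.7 in Ws-2 H and between 20.4 and 51.3 in Ws-2 L. The changes of these 8 markers lay between -0.19 and 0.05 on the log2 scale. Of the 8, 0 were called, where 2.95% of all probe sets tested were, so this says little about cell types. In whole leaves, fewer cells of a type and less RNA per cell cannot be told apart.

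Of the leaf transcripts that passed the test between H and L in Ws-2, more were lower in H than higher. Changes are given as log2 differences of signal + 10, H minus L, and a probe set is called when the adjusted p of limma is under 0.05. Of 16076 probe sets tested, 474 were called (2.95%), with 166 higher in H (1.03%) and 308 lower (1.92%). At an unadjusted p under 0.05 there were 2212 (13.8%), so a transcript that was not called is not shown to be the same in H and L. The median change was 0.52 among the rises and -0.56 among the falls, and the median size over all tested probe sets was 0.11. Arrays are named by condition and replicate, so that H 2 is the second array of Ws-2 H. A change of at least 1 on the log2 scale was reached by 16 rises and 28 falls. The 3 H signals lay entirely above or below the 3 L signals in 473 of the 474 calls, against 19.8% of all probe sets tested. Transcripts of middle brightness were called most often: 6.71% of those with a mean signal from 200 up to 1000 and 3.38% of those from 50 up to 200, against 0.989% below 50 and 2.78% at 1000 or more. The number of calls depended on single arrays, with 284 without H 2, 270 without H 3, 315 without L 1, 278 without L 2 and 265 without L 3. Leaving out 1 ape2 array, which changes only the error estimate, gave between 411 and 506. A fit of the 6 Ws-2 arrays alone gave 438. In all of these fits the probe sets tested were still those that passed the filter with every array counted, ape2 included. Under every alternative that tested them and with each array left out in turn, 189 of the 474 stayed called, 57 of them rises and 132 falls. A probe set removed by the stricter filter, at a signal of 50, was counted as keeping its call there.

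**Figure D1:**
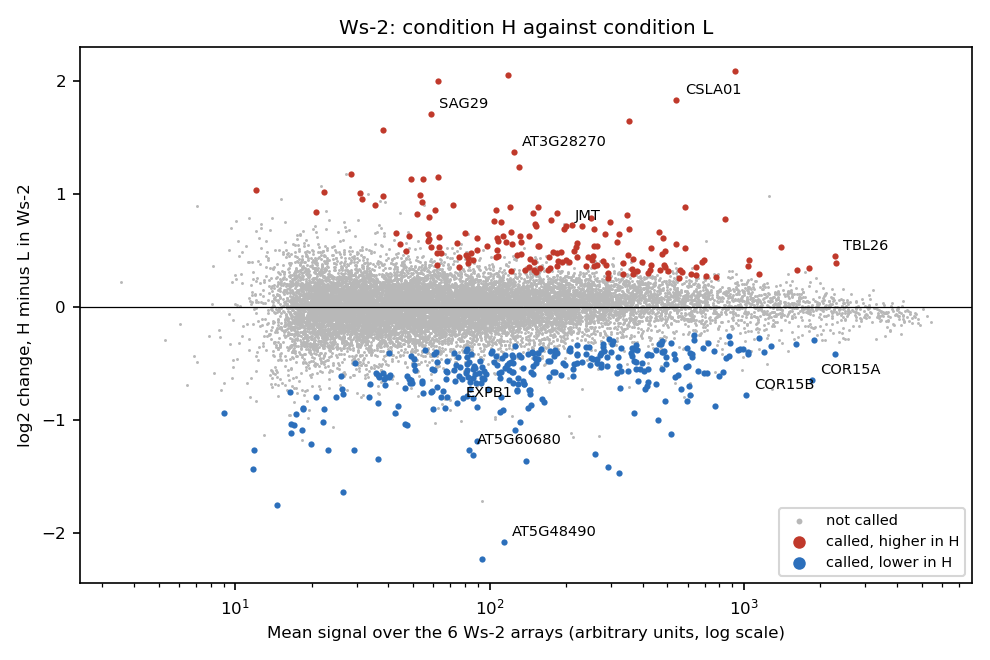
Each point is 1 of the 16076 probe sets tested, with its mean signal over the 6 Ws-2 arrays on a log axis and its log2 change, H minus L, on the other. Red points are the 166 called higher in H, blue points the 308 called lower, and 10 genes are labelled, among them CSLA01 at 1.83 and AT5G48490 at -2.09.

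Of the 474 called probe sets, 209 carry 1 gene in the annotation, 8 carry several and 257 carry none. A gene symbol is given for 39, of which 18 rose and 21 fell, and 16 of the 39 stayed called in every setting. These 16 are described first by function, followed by the others. The genes known only by a locus code are given by code, without a role.

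Among genes of the cell wall, the largest response was that of CSLA01, a cellulose synthase-like gene of the family that makes mannan backbones. Its signal was 825, 804 and 920.3 in Ws-2 H, against 172, 274 and 261 in Ws-2 L. Every H array was above every L array, and the ratio of the mean signals was 3.61. The log2 change was 1.83 ± 0.19 (SE, limma adjusted p = 2.08e-04). TBL26, of the family of wall polysaccharide acetylation proteins, is a bright transcript and rose by a smaller amount. It had 2701, 2612 and 2585 in Ws-2 H, against 1784, 1934 and 2067 in Ws-2 L, a change of 0.45 ± 0.07 (0.00193). The groups did not overlap. GH9C2, an endoglucanase, went the other way. Its signals were 482, 561 and 546 in Ws-2 H, against 769.5, 780.1 and 824 in Ws-2 L, a change of -0.57 ± 0.09 (0.00149). EXPB1, a beta-expansin, had 46.8, 49.8 and 54.2 in Ws-2 H, against 95.6, 108 and 93.4 in Ws-2 L. The L mean was 1.97 times the H mean, and the change was -0.85 ± 0.15 (0.00438).

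Beyond these 4 genes, 1 other member of their families was called. Over all probe sets tested 2.95% were called, and the shares in these families, from 4.76% to 16.7%, each rest on 1 or 2 calls. Of the 8 cellulose synthase and cellulose synthase-like probe sets tested, CSLA01 was the only call, 5 changes were positive, and the median was 0.03. Among 21 TBL probe sets, 1 rose and 0 fell, 14 changes were negative, and the median was -0.13. Of the TBL genes that were not called, TBL37 was at 0.39 (limma adjusted p = 0.0863) and TBL38 at -0.52 (0.0746). Of 12 expansins, 0 rose and 2 fell, with a median of -0.04. The second of these, EXPA8, had a change of -0.56 ± 0.13 (0.0261), a call that did not hold without H 1, H 3, L 1 or L 2 (adjusted p up to 0.117), with no filter on low signals or with a constant prior variance (up to 0.0764). Of 7 GH9 endoglucanases, GH9C2 was the only call, and the median was 0.01. The lowest change of that family, -0.58, was that of a member not called. The median over all probe sets tested was 0.00.

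**Figure D2:**
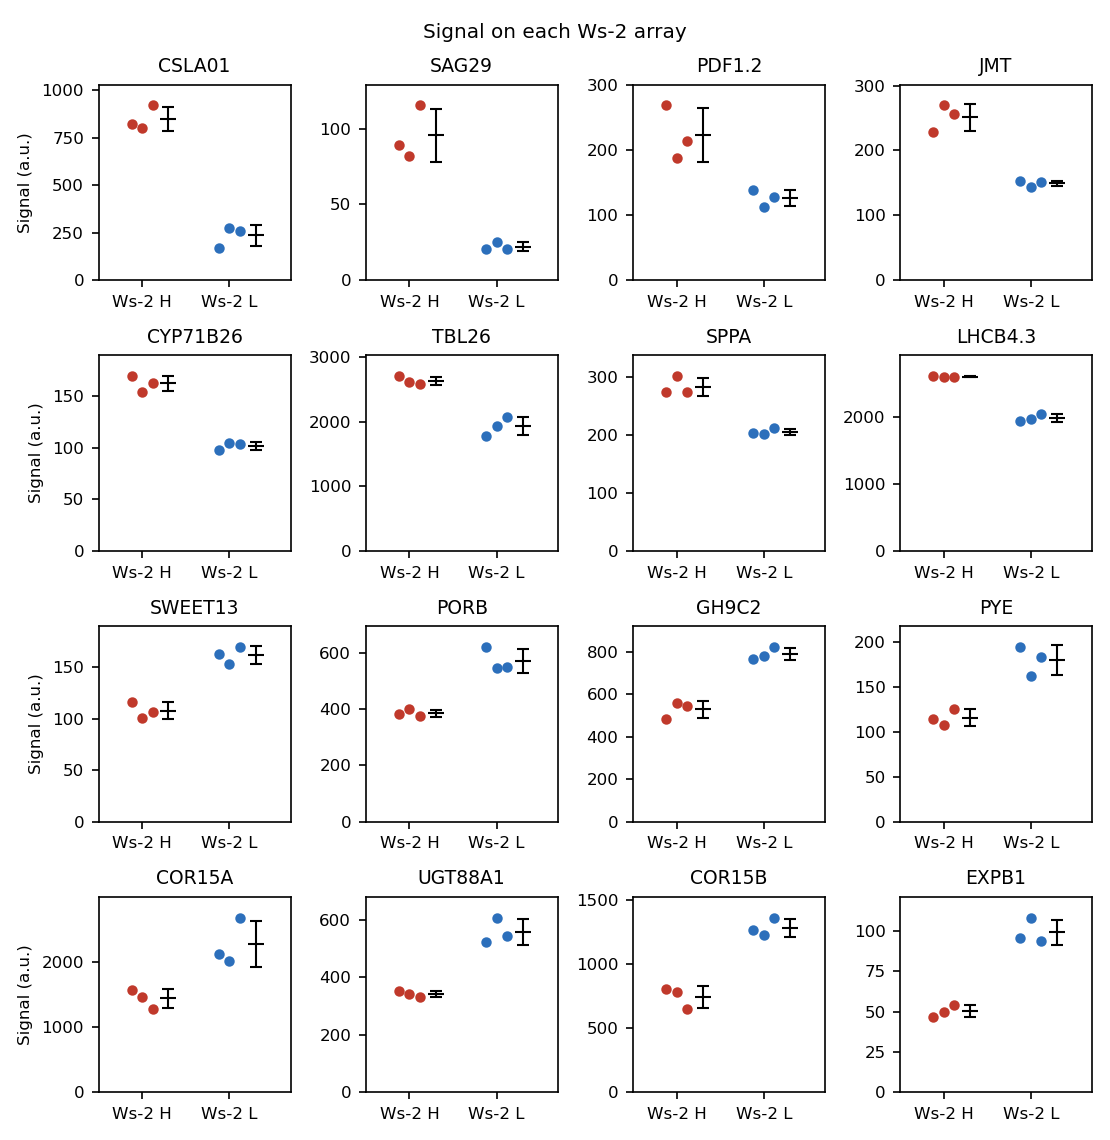
Signal in arbitrary units on each Ws-2 array for the 16 genes with a symbol that stayed called in every setting, each panel with its own axis from 0, H left of L, and the mean with its SD beside the points. In all 16 panels the 3 H signals lie apart from the 3 L signals, 8 genes being higher in H and 8 lower.

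Sugar transport showed changes in opposite directions within the SWEET family. SAG29, also known as SWEET15, a sucrose exporter first described in senescent tissue, had a signal of 89.3, 81.8 and 115 in Ws-2 H, against 20.4, 25.4 and 20.6 in Ws-2 L. All H arrays were above all L arrays, and the H mean was 4.31 times the L mean. Its change was 1.71 ± 0.23 (SE, limma adjusted p = 8.33e-04), and since the L signals are low its size varied with the offset, being 2.05 for an offset of 1 and 1.23 for 32. SWEET13, a sucrose exporter of the same clade, fell. It had 116, 100.3 and 107 in Ws-2 H, against 163, 153 and 169.6 in Ws-2 L, a change of -0.54 ± 0.10 (0.00609). The other 12 SWEET genes were not called and lay between -0.36 and 0.21. The family's share of calls, 14.3%, rests on these 2 genes, against 2.95% of all probe sets tested. The brightest of the SWEET genes not called, SWEET11, which loads sucrose into the phloem, had a mean of 864 in Ws-2 H and 925 in Ws-2 L (-0.10, adjusted p = 0.562).

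The lists for sucrose synthesis, starch and sugar starvation each held 1 call, a share of 12.5% or 20% of their 5 to 8 measured members, against 2.95% of all probe sets tested. Of 8 probe sets on the list for sucrose synthesis and sugar transport, SAG29 was the only call, and the median was 0.03. ATSPS4F, a sucrose phosphate synthase, was at -0.03 (limma adjusted p = 0.925), with a mean of 843 in Ws-2 H and 863 in Ws-2 L. On the starch list, 1 of 5 probe sets rose and 0 fell, with a median of 0.19. The call was DPE1, the disproportionating enzyme that acts on maltotriose during starch breakdown, at 0.46 ± 0.12 (0.0497). It was at the edge of the threshold, and leaving out any 1 of 10 of the 12 arrays ended the call (all but ape2 H 2 and ape2 L 2, adjusted p up to 0.217). It also ended with an offset of 1 or 32, with no filter, with quantile normalization and with a constant prior variance (up to 0.092). APL3, which encodes an ADP-glucose pyrophosphorylase large subunit, had a mean of 116 in Ws-2 H and 90.2 in Ws-2 L (0.33, 0.135). Of the envelope translocators, 1 of 8 listed genes was measured: AT5G17630 was at 0.20 (0.233), and TPT itself has no named probe set here. Of 8 sugar-repressed and starvation genes 0 rose and 1 fell, with a median of -0.08. The 1 call, AT5G19120, was at or under a signal of 22.6 on all 6 arrays, and L 2 alone of them reached 20. It passed the filter only through the ape2 arrays, with means of 25.3 in ape2 H and 76.2 in ape2 L. Its change was -0.94 ± 0.20 (0.0138), or -2.01 with an offset of 1 and -0.43 with 32. It was not called without L 2 (0.0728) or in a fit of the 6 Ws-2 arrays alone.

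Only a small part of the nuclear genes of photosynthesis had a named probe set that was tested. Of the 30 listed photosystem and electron transport subunits 5 were tested, with changes between -0.12 and 0.05. Of the 25 Calvin-Benson cycle genes 4 were tested, between -0.08 and 0.20, and of the 14 photorespiration genes 3, between -0.06 and 0.07. None was called, and since only 2.95% of all probe sets were called, no calls in so few genes say little about the rest. The antenna protein CP29 of photosystem II is encoded by LHCB4.1, LHCB4.2 and LHCB4.3, and of these isoforms only LHCB4.3 passed the test. It had 2614, 2599.5 and 2608 in Ws-2 H, against 1941, 1976 and 2052 in Ws-2 L. The 3 H signals were close together and above each L signal, and the change was 0.39 ± 0.06 (SE, limma adjusted p = 0.00307). LHCB4.1 was at -0.14 (0.548), and LHCB4.2 was at -0.21 (0.263). Whether the isoforms' changes differ from each other was not tested. LPA2, which assists photosystem II assembly, was at 0.35 ± 0.08 (0.0183), a call lost without H 2, H 3, L 1 or L 3 (up to 0.092) or with a constant prior variance (0.072).

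Within chlorophyll synthesis, 1 of 7 genes fell and 0 rose, where 1.92% of all probe sets fell and 1.03% rose. The gene was PORB, a protochlorophyllide oxidoreductase, the light-driven enzyme of the pathway. Its signals were 382, 399.6 and 375 in Ws-2 H, against 620.3, 545 and 548 in Ws-2 L. The groups were well apart, and the change was -0.55 ± 0.07 (SE, limma adjusted p = 4.01e-04). The other 6 members, among them CHLI2 and CHLM, lay between -0.10 and 0.13. SPPA, a protease of the thylakoid, had 273, 301 and 274 in Ws-2 H, against 203, 202 and 211 in Ws-2 L, a change of 0.44 ± 0.08 (0.00522).

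Of the light-stress and photoprotection list 3 of 20 genes were tested, and 1 rose and 0 fell. The rise was that of LHCB4.3, given above, and the antenna-like genes LIL3:1 and LIL3:2 were at 0.00 and -0.02. Of 30 antioxidant genes 7 were tested and 0 were called, with a median of -0.02. Since 2.95% of all probe sets were called, 0 calls in lists this short say nothing particular about them. SAPX, the stromal ascorbate peroxidase, was the highest of them at 0.38 (limma adjusted p = 0.144), with a mean of 455 in Ws-2 H and 345 in Ws-2 L. Of 7 plastid thioredoxin and NADP redox probe sets 0 were called, although 6 changes were positive, with a median of 0.08. Outside these lists, VTC4, an enzyme of ascorbate synthesis, was at -0.33 ± 0.08 (0.0362), and leaving out any 1 of the 6 Ws-2 arrays ended its call (up to 0.145), as did using no filter or a constant prior variance (up to 0.108). Of 26 heat shock genes 4 were tested and 0 were called, and their changes lay between -0.07 and 0.40. Of 6 flavonoid genes 0 were called, 5 changes were positive, and the median was 0.16. AT1G06000 came nearest, at 0.52 (0.0625), with means of 163 in Ws-2 H and 111 in Ws-2 L.

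Of the cold-regulated genes measured, both COR15 genes fell in H. COR15A and COR15B encode small proteins of the chloroplast stroma that protect membranes during freezing. COR15B had 805, 780.1 and 647 in Ws-2 H, against 1269, 1226 and 1363 in Ws-2 L. The highest H signal was below the lowest L signal, and the change was -0.79 ± 0.10 (SE, limma adjusted p = 5.45e-04). COR15A had 1569, 1459 and 1282 in Ws-2 H, against 2121, 2017 and 2672 in Ws-2 L, with groups that did not overlap and a change of -0.65 ± 0.12 (0.00523). They are closely related copies that lie side by side, so their probe sets may share signal, and their values are not fully separate. LTI30, a dehydrin and a dim transcript, was at -0.57 (0.114), and COR47, also a dehydrin, at -0.26 (0.251). Of the 26 genes on the list 4 were tested, and these held 0 rises and 2 falls, where 1.92% of all probe sets fell. Their median was -0.61, against 0.00 over all, and it lay between -0.69 and -0.55 with each Ws-2 array left out. Of the 2 clock genes, CCL was at -0.50 ± 0.11 (0.0178), a call lost without H 2, H 3, L 1 or L 3 (up to 0.106) or with a constant prior variance (0.072), and GI was at -0.19 (0.309).

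Of the 3 jasmonate genes measured, JMT and PDF1.2 rose. JMT, the methyltransferase that forms methyl jasmonate, had 229, 269 and 256 in Ws-2 H, against 152, 144 and 151 in Ws-2 L. Each H array was higher, and the change was 0.71 ± 0.11 (SE, limma adjusted p = 0.00144). PDF1.2, a plant defensin that responds to jasmonate and ethylene, had 268, 188 and 213 in Ws-2 H, against 138, 113 and 127 in Ws-2 L, a change of 0.77 ± 0.14 (0.00648). The third listed gene, the thionin THI2.1, had means of 25.5 in Ws-2 H and 24.7 in Ws-2 L and was at 0.04 (0.968), so that 2 of 3 rose and 0 fell, where 1.03% of all probe sets rose. The list names 18 genes. PDF1.2b, a near-identical copy whose probe set is of the kind that matches several transcripts, was at 0.75 ± 0.14 (0.00877), which was not called without L 3 (0.0508). PDF1.2 and PDF1.2b are uncertain as separate genes. Of 2 salicylic acid and pathogen genes, 0 were called, where 2.95% of all probe sets were.

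PYE, which is on no gene list, ATG8E of the autophagy list and CYP71B26 of the cytochrome P450 family were also called. PYE, a bHLH transcription factor of the iron deficiency response, had 114, 108 and 126 in Ws-2 H, against 194, 162 and 183 in Ws-2 L, a change of -0.59 ± 0.11 (SE, limma adjusted p = 0.00683). The groups did not overlap. ATG8E, a member of the ubiquitin-like family that is bound to autophagosome membranes, was dim, with 17.3, 18.8 and 19.3 in Ws-2 H, against 30.9, 32.9 and 36.9 in Ws-2 L. Its change was -0.61 ± 0.12 (0.00784), or -0.83 with an offset of 1 and -0.38 with 32, and the call was lost in a fit of the 6 Ws-2 arrays alone. The other 9 autophagy probe sets lay between -0.15 and 0.11, giving 0 rises and 1 fall on the list. Over all probe sets tested, 1.03% rose and 1.92% fell. CYP71B26, a cytochrome P450, had 169, 154 and 163 in Ws-2 H, against 97.4, 104 and 104 in Ws-2 L, a change of 0.62 ± 0.08 (6.86e-04). The H signals were all above the L signals. Of 15 cytochrome P450 genes 1 rose and 1 fell (13.3%), where 2.95% of all probe sets were called. The fall was that of the dim CYP71B29 at -1.12 ± 0.26 (0.0294, or -1.82 with an offset of 1 and -0.59 with 32). CYP71B29 passed the filter only with the ape2 arrays counted, at means of 18.7 in ape2 H and 35.3 in ape2 L. Its call was lost without H 1, H 2, H 3, L 2 or L 3 (up to 0.153), with no filter or with a constant prior variance (up to 0.0584).

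UGT88A1, of the family of UDP-glycosyltransferases that attach sugars to small molecules, had 352, 343 and 330.4 in Ws-2 H, against 522, 606 and 543 in Ws-2 L. The change was -0.69 ± 0.08 (SE, limma adjusted p = 1.83e-04), and the groups were far apart. Of 29 genes of this family, 2 rose and 1 fell, with a median of 0.02. Over all probe sets tested, 1.03% rose and 1.92% fell. The rises were UGT84A3 at 0.53 ± 0.11 (0.0134), lost without H 1, H 3 or L 2 (up to 0.0847), and UGT71B1 at 0.31 ± 0.08 (0.0491), lost without any 1 of 10 of the 12 arrays (all but ape2 L 1 and ape2 L 2, up to 0.174), and also with an offset of 1, with no filter, with a constant prior variance or in a fit of the 6 Ws-2 arrays alone (up to 0.0795).

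**Figure D3:**
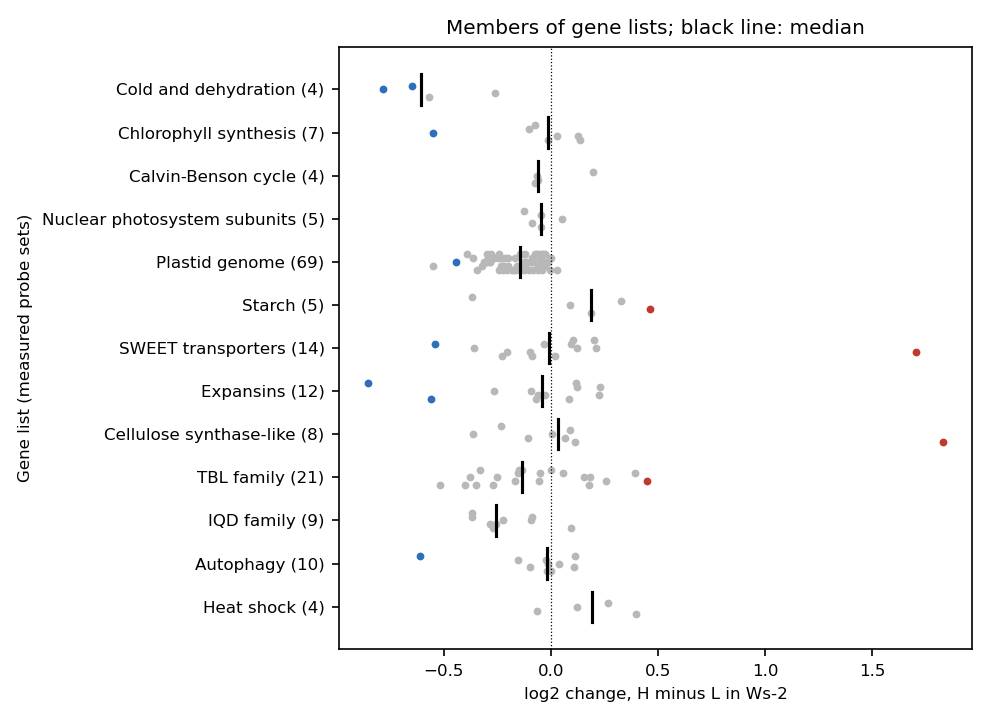
Log2 change, H minus L in Ws-2, of each measured probe set of 13 gene lists, with called members in red where higher and blue where lower, others in grey, and the median of each list as a black line. The number of probe sets is beside each name. Cold-regulated genes have a median of -0.61, and CSLA01 and SAG29 stand alone at the right.

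The remaining calls with a symbol were smaller or depended on single arrays. ASF1B, a histone chaperone, was at 0.63 ± 0.14 (limma adjusted p = 0.0218), lost without H 2, H 3, L 1, L 2 or L 3 (up to 0.121). CYTC-2, a cytochrome c of the mitochondrion, was at 0.41 (0.0252), lost without the same 5 arrays (up to 0.12). SKP2A, an F-box protein, was at 0.39 (0.0147), lost without H 2, H 3 or L 1 (up to 0.0723), and GEK1 was at 0.48 (0.0194), lost without H 2, H 3, L 2 or L 3 (up to 0.111). OTC, the ornithine carbamoyltransferase of arginine synthesis, was at 0.30 (0.0309), lost without any 1 of the 6 Ws-2 arrays (up to 0.147). Among the falls, TUB5, a beta-tubulin, was at -0.44 (0.0164), lost without H 1, H 2, L 1 or L 2 (up to 0.0792), and the other 6 tubulins lay between -0.09 and 0.09. BGLU33, a beta-glucosidase, was at -0.49 (0.0155), lost without H 3, L 1 or L 3 (up to 0.0912). PRXR1 at -0.30, CDI at -0.33, PIA1 at -0.34, KICP-02 at -0.52 and the dim ATL8 at -0.76 (-1.21 with an offset of 1 and -0.40 with 32) had adjusted p between 0.038 and 0.047, and each lost its call without any 1 of 8 to 10 of the 12 arrays, H 3, L 1 and L 3 among them for all 5 (up to 0.208). With a constant prior variance or with no filter 4 of these 5 lost it, all but ATL8, and in a fit of the 6 Ws-2 arrays alone 4, all but CDI (up to 0.144). KICP-02 also lost it with quantile normalization (0.0689). Of the calls above, ASF1B and OTC were also lost in that fit, and CYTC-2, OTC and TUB5 with a constant prior variance (up to 0.0829).

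Several of the largest changes were those of genes known here only by locus code. The largest fall of a gene named by rule was that of AT5G48490, with 37.8, 26.3 and 48.7 in Ws-2 H, against 192, 215 and 161 in Ws-2 L. The L mean was 5.04 times the H mean, and the change was -2.09 ± 0.19 (SE, limma adjusted p = 6.29e-05). AT1G19960 followed at -1.47 ± 0.17 (5.72e-04), with L signals of 651, 361 and 430.1 that varied widely and H signals of 188, 132 and 169 that lay below them. AT5G60680 had the smallest adjusted p of the named falls, 8.88e-07. Its signals were 46.1, 42.4 and 44.6 in Ws-2 H, against 111, 127 and 125 in Ws-2 L, tight in both groups, and the change was -1.27 ± 0.09. AT1G04770 was at -1.37, AT3G06070 at -1.04 and AT1G23390 at -1.02, the L mean of AT1G49500 was 2.02 times its H mean, and AT1G26920, AT4G36500, AT3G62550 and AT4G30660 lay between -0.94 and -0.87. Among the rises, AT3G28270 had 233, 164 and 157 in Ws-2 H, against 65.5, 65.4 and 61.8 in Ws-2 L, a change of 1.37 ± 0.14 (5.63e-05). AT3G05400, AT2G03980, AT1G52770, AT1G61890, AT2G36885, AT5G44050 and AT1G57770 rose by 0.62 to 0.93. All of these kept their call in every setting, which the rule that picked them largely required.

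Probe sets with no gene in the annotation reached similar sizes. For 245306_at the signals were 1552, 1565 and 1381 in Ws-2 H, against 348, 334 and 355 in Ws-2 L, and the change of 2.08 ± 0.07 (SE, limma adjusted p = 1.77e-10) was the largest rise of all. Next among the bright ones was 247717_at at 2.05 ± 0.26 (9.19e-04). The 2 largest falls of this kind that kept their call with each Ws-2 array left out and were bright in L were 259751_at at -1.42 ± 0.12 (1.02e-05) and 265342_at at -1.34 ± 0.15 (1.06e-04; -1.77 with an offset of 1 and -0.87 with 32), with means of 156 and 16.5 in Ws-2 H, against 429 and 56.2 in Ws-2 L.

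Transcripts of the plastid genome had small changes that were mostly negative. Of 69 plastid-encoded probe sets, 67 had a negative change, against 8035 of all 16076 tested, and the median was -0.14. The share called was 1.45%, against 2.95% of all probe sets tested. Only ndhF, a subunit of the plastid NDH complex, was called, at -0.44 ± 0.11 (SE, limma adjusted p = 0.0324), and the call was lost without H 1, H 2, L 1, L 2 or L 3 (up to 0.128), with no filter or with a constant prior variance (up to 0.096). By function the median was -0.25 over 6 ATP synthase genes, -0.21 over 10 NDH genes, -0.15 over 15 ribosomal protein genes, -0.14 over 15 photosystem II genes, -0.14 over 6 cytochrome b6f genes, -0.12 over 4 RNA polymerase genes and -0.06 over 5 photosystem I genes. The summed signal of the 69 overlapped between the groups, with 130832, 115713 and 115910.3 on the H arrays and 120647, 131632 and 142739 on the L arrays. The array Ws-2 L 3 was the highest, and without it 48 of 69 were negative, with a median of -0.12. Since plastid genes share transcripts and are measured on the same arrays, they are not independent of each other. In ape2, 19 of the 69 were negative, with a median of 0.06, against 67 and a median of -0.14 in Ws-2, while 8995 of all 16076 probe sets were negative in ape2. By limma, 0 of the 69 were called for the difference between the genotypes (0.0187% of all tested). An unadjusted p under 0.05 for it was reached by 11 of the 69, against 1229 of all 16076 probe sets tested (7.64%).

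The arrays of ape2 gave a second measurement of H against L whose group means share no array with the first, although both tests use the same error estimate. In ape2, 648 probe sets were called (4.03%), 287 higher (1.79%) and 361 lower (2.25%). Of the 474 called in Ws-2, 426 had the same sign in ape2 (89.9%), against 60.3% of all probe sets tested, and 216 were also called there. All 216 went in the same direction, 74 up and 142 down, and they make up 33.3% of the calls in ape2 and 45.6% of the calls in Ws-2. The change was smaller in ape2 for 361 of the 474, but these probe sets were chosen for their change in Ws-2. The test of the difference itself called 3 probe sets (0.0187%), with 1229 at an unadjusted p under 0.05 (7.64%), and none of the 3 has a gene named here.

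For several named genes the changes in the genotypes lay close together. CSLA01 was at 1.85 in ape2, against 1.83 in Ws-2, with mean signals of 176 in ape2 H and 41.3 in ape2 L. SAG29 was at 1.97 in ape2, against 1.71 in Ws-2, and JMT was at 0.84 in ape2, against 0.71 in Ws-2. The antenna gene LHCB4.3 was at 0.44 in ape2, against 0.39 in Ws-2. Among the falls, PORB was at -0.46 in ape2, against -0.55 in Ws-2, PYE was at -0.62 in ape2, against -0.59 in Ws-2, and SWEET13 was at -0.55 in ape2, against -0.54 in Ws-2. The limma adjusted p of the difference was 0.889 or higher for these 7 genes. Some genes had a larger change in ape2. TBL26 was at 0.82 in ape2, against 0.45 in Ws-2 (adjusted p of the difference = 0.282), and AT3G28270 was at 1.91 in ape2, against 1.37 in Ws-2 (0.544). EXPA8 was at -1.01 in ape2, against -0.56 in Ws-2 (0.591; its Ws-2 call depends on single arrays, as given above), and CYP71B26 was at 0.85 in ape2, against 0.62 in Ws-2 (0.697). Others had a change nearer 0 in ape2. PDF1.2 was at -0.14 ± 0.14 in ape2, against 0.77 ± 0.14 in Ws-2 (adjusted p of the difference = 0.159), and AT1G61890 was at 0.02 in ape2, against 0.72 in Ws-2 (0.165). UGT88A1 was at -0.12 in ape2, against -0.69 in Ws-2 (0.116), and AT1G23390 was at -0.18 in ape2, against -1.02 in Ws-2 (0.281). COR15A was at -0.21 in ape2, against -0.65 in Ws-2 (0.551), and COR15B was at -0.41 in ape2, against -0.79 in Ws-2 (0.572). Among the genes named here, those nearest to a called difference were AT1G13650 and AT5G60680. AT1G13650 was at 0.65 ± 0.10 in ape2, against -0.20 ± 0.10 in Ws-2 (0.0639), and AT5G60680 was at -0.60 ± 0.09 in ape2, against -1.27 ± 0.09 in Ws-2 (0.081). The unnamed 264339_at was at -0.26 in ape2, against -1.44 in Ws-2 (0.0639). Its mean signals in Ws-2 were dim, at 1.67 in H and 21.9 in L, so that its Ws-2 change was -3.11 with an offset of 1 and -0.68 with 32. It passed the filter only through the ape2 arrays, with means of 159 in ape2 H and 190 in ape2 L. The difference was not called for any of these genes, which does not show that the genotypes respond alike.

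**Figure D4:**
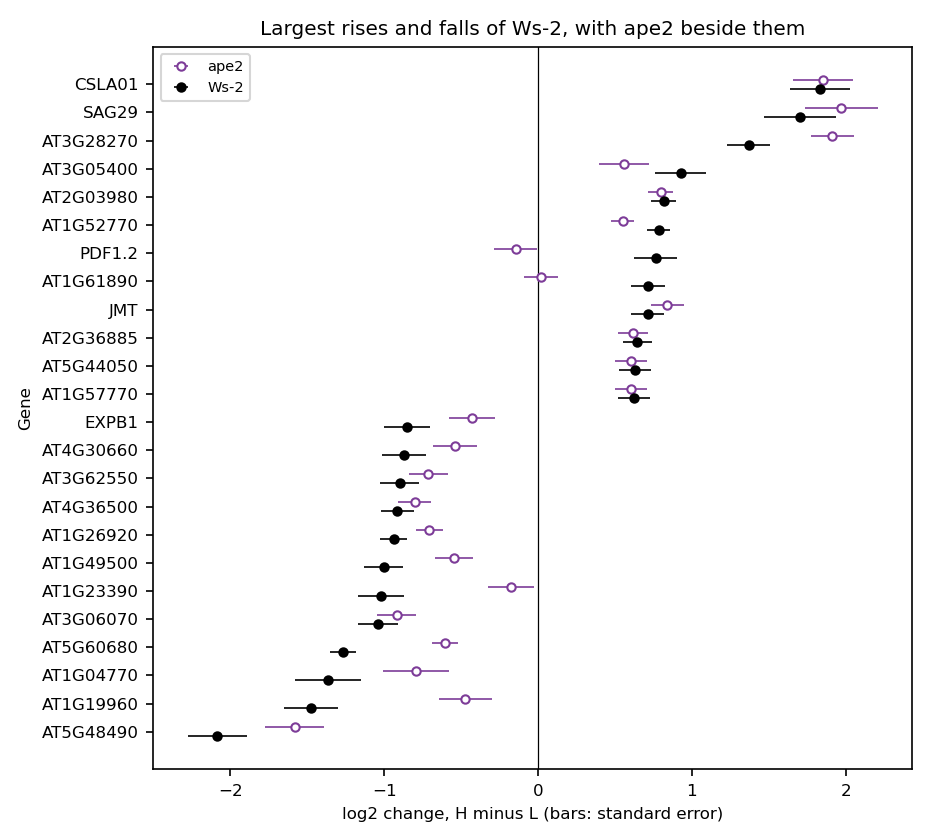
Log2 change, H minus L, with its standard error, for the 12 largest rises and 12 largest falls of Ws-2 by the rule for named genes, open purple circles for ape2 above filled black circles for Ws-2. CSLA01 and SAG29 lie close together in both, while PDF1.2 and AT1G61890 lie near 0 in ape2.

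**Figure D5:**
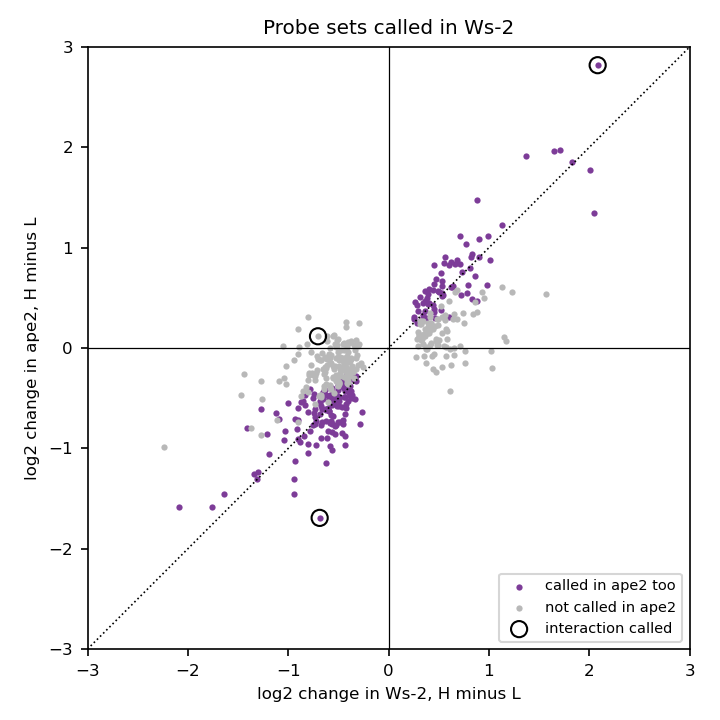
Each point is 1 of the 474 probe sets called in Ws-2, with its log2 change in ape2 on the vertical axis and in Ws-2 on the horizontal axis, purple where also called in ape2 (216) and grey where not. The dotted line marks equal change, and black rings mark the 3 probe sets called for the difference between the genotypes.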

How the data were processed

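The samples were 12 single-colour oligonucleotide arrays in 4 groups of 3. Per the submitters' processing notes, the authors used MAS5, and what they deposited is 1 linear signal intensity per probe set and array. The sources used here do not give its version. Already at deposit, the 2% trimmed mean of each array was 100, so a change shared by most transcripts would not be visible. Each array was rescaled to that mean, and 64 control probe sets were left out. The filter asked for a signal of 20 or higher on 3 arrays (16076 probe sets passed and 6670 were removed), and values were taken as log2(signal + 10). limma 3.58.1 in R 4.3.3 was fitted with 4 group means over the 12 arrays, with a robust prior variance that follows intensity. Tests were two-sided with Benjamini-Hochberg adjustment over all probe sets tested, called at 0.05, and the script was tested on simulated data. The number of arrays limits the precision. A gene is called dim at a mean signal under 20 in a group. Names came from the platform annotation, which gives 1 gene for 13513 of 22746 probe sets, 13436 of them matched to RefSeq (TAIR10.1) and 1551 with a symbol.

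The genes named are the 12 largest rises and falls among called probe sets with 1 gene, a signal of at least 50 in the brighter group and no overlap. Their call also had to hold in each alternative but the filters, and with each of the 6 Ws-2 arrays left out. Called or brightest members of each list, the 5 smallest p-values of the interaction and up to 4 unnamed probe sets were added, with translocators. All called genes with a symbol were added after values were seen. The comparison, its gene lists and the rule were chosen with earlier results of these data known, and symbol families were drawn up from the annotation. The settings varied were the offset (1 or 32), the filter (none, or 50), normalization (quantile, or values as deposited), the prior (constant), array weights, a fit of 1 genotype's 6 arrays, a block for replicate number, and each array left out in turn.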

Additional observations from a re-analysis of the deposited data

Results flagged for a closer look

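The response to H differed between the genotypes for 3 probe sets, by the interaction term of limma, and none has a gene named here. The signal of 253971_at was 487, 450.1 and 446 in Ws-2 H, against 758, 732 and 779.8 in Ws-2 L. Its change was 0.12 in ape2, against -0.70 in Ws-2, a difference of 0.82 (ape2 minus Ws-2, adjusted p = 0.0155), and the call was lost without L 2 or L 3 of Ws-2 (up to 0.0693). For 260126_at the change was -1.69 in ape2, against -0.69 in Ws-2, a difference of -1.01 (0.0155), which did not hold without L 2 or L 3 of Ws-2, or H 3 or L 1 of ape2 (up to 0.0806). For 245306_at it was 2.82 in ape2, against 2.08 in Ws-2, a difference of 0.73 (0.0179), which did not hold without H 3, L 2 or L 3 of Ws-2, or H 3 or L 2 of ape2 (up to 0.0927). With a constant prior variance all 3 calls were lost (up to 0.181), and with the replicate number as a block that of 245306_at.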

How the results depend on the processing

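The 474 calls in Ws-2 became 305 with a constant prior variance, with 102 higher and 203 lower. The other 9 alternatives gave between 378 and 565. With 1 array left out the total ran from 265 to 506, the higher calls from 83 to 183 and the lower calls from 182 to 323. The calls in ape2, 648 in number, became 422 with a constant prior variance and 383 with the 6 ape2 arrays alone, and ran from 367 to 670 with 1 array left out. The 3 interaction calls became 0 with a constant prior variance and 10 with array weights, and ran from 0 to 7 with 1 array left out. Of 66 called genes and probe sets named, 42 kept their call in every setting, 24 lost it in at least 1 (5 of them only when an array was left out), and 0 changed direction. Part of the 66 were picked by a rule that asks for a kept call, so they do not stand for all calls. Of all 474 calls, 189 were kept in every setting that tested them. Deviations of same-numbered Ws-2 samples correlated weakly, at 0.12, 0.04 and 0.04, against -0.11 to 0.07 for differently numbered ones. With the replicate number as a block 428 probe sets were called. Of the 66 named, 6 were not called with the block, namely DPE1, UGT71B1, KICP-02, CDI, PIA1 and ATL8 (adjusted p from 0.0573 to 0.0766). The median standard error was 0.17 among probe sets with a mean signal below 50, against 0.08 at 1000 or more. The cause of these shifts was not tested.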

Other observations

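The IQD genes, whose products bind calmodulin, leaned one way without a call. Of 9 measured, 0 rose and 0 fell, where 2.95% of all probe sets were called. In Ws-2, 8 had a negative change, against 8035 of all 16076 probe sets, with a median of -0.26, which lay between -0.26 and -0.20 with each Ws-2 array left out. In ape2 all 9 were negative, with a median of -0.23, where 8995 of the 16076 were negative and the median over all was -0.03. The OTP genes, which act in organelle RNA processing, had 6 positive changes of 7 in Ws-2, against 8041 of all 16076 probe sets, and 0 were called. Their median was 0.29 in Ws-2, 0.03 without Ws-2 L 3, and -0.02 in ape2. Of those with a positive change, OTP43, OTP85 and OTP87 were dim, with means in Ws-2 L of 19.3, 18.4 and 16.8. OTP86, whose change was negative, was also dim, at 10.8 in Ws-2 H.

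Some neighbouring genes were called together. Among 2987 pairs of neighbouring genes that were both tested, 142 held at least 1 call and 6 of these (4.23%) held 2. Of all probe sets tested, 2.95% were called, but that is a share of single probe sets and no measure for pairs. Whether 6 pairs are more than unrelated calls would give was not tested. All 6 pairs had both members lower in H: COR15B with COR15A, AT2G29290 with AT2G29300, AT4G30650 with AT4G30660, AT1G29660 with AT1G29670, AT3G53980 with AT3G53990, and AT5G62350 with AT5G62360. Over all pairs, 51.4% had changes of the same sign. Most of those pairs held no call, and calls were more often falls (308) than rises (166). The share over all pairs is therefore no measure for called pairs. Whether the 6 pairs share probe sequence was not tested.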
